A study of Mus musculus with 24 samples.

Results

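The comparison is between primary mouse cortical astrocytes that lost the insulin receptor gene through Cre recombinase and floxed astrocytes that kept it, both given vehicle. Its 8 libraries, 4 per group, were chosen by their titles from the 24 of the study. All cultures came from the cortices of newborn pups with floxed insulin receptor alleles and carry the label DIV14. Cells labelled IRKO had been infected with an adenovirus encoding a Cre and GFP product, and the cells labelled IRflox, called floxed control here, with an adenovirus encoding GFP alone. Both groups were used 5 days after infection, were starved of serum overnight in medium with albumin, and received vehicle (0 nM ligand) for 6 h. Libraries of the same genotypes after 6 h of insulin or of IGF-1, both at 100 nM and again 4 each, entered the fit and serve as separate libraries in which the genotype difference was measured again. Genotype, Cre and virus go together in this design and cannot be told apart. How many pups were pooled, and whether the libraries of a group are separate cultures, is not stated in the labels. P-values therefore reflect the spread among the libraries as sequenced, part of which may be technical.

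The insulin receptor is a receptor tyrosine kinase that phosphorylates insulin receptor substrates, which recruit PI3-kinase and activate AKT. AKT restrains FOXO transcription factors, activates mTORC1 and thereby favours growth and lipid synthesis over autophagy. Astrocytes carry both the insulin receptor and the closely related IGF-1 receptor, and the receptors share most of their downstream components. Under vehicle after serum starvation no ligand was added, so the comparison concerns the basal state of the 2 genotypes.

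The 8 libraries held 15429688 to 19010986 gene counts each. Reads outside genes here means all reads not counted as unique overlaps with genes, whatever the reason. They made up 16.6 to 23.2% in the floxed control libraries and 16.9 to 22.5% in the IRKO libraries, with the same median of 18.2% in both. The first principal component of the vehicle libraries (21.4% of the variance) placed all 4 floxed control libraries on one side and all 4 IRKO libraries on the other. The next component did not separate the genotypes. IRKO vehicle library 4 had 112 counts of albumin, a liver transcript, against 0 in the other IRKO vehicle libraries and 0 to 2 in the floxed control vehicle libraries. The insulin and IGF-1 libraries of both genotypes had 1 to 153 counts of it.

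Levels are given as CPM, counts scaled to library size, and differences as log2 of IRKO over floxed control with the standard error (SE) of an edgeR quasi-likelihood fit. A gene was called, and is said to have risen or fallen, at a Benjamini-Hochberg adjusted p under 0.05 over the 15599 genes tested. Of these, 1226 (7.86%) differed between the genotypes under vehicle: 586 (3.76%) were higher in IRKO and 640 (4.1%) were lower. Counts within the gene lists below stand beside these shares, and no list was tested as a set. Most of the differences were small. The median size was 0.25 on the log2 scale among called genes and 0.09 among all genes tested. Over 1.5-fold, 29 genes (0.186%) were higher and 86 (0.551%) lower. Of the 43 genes called with more than a 2-fold difference, 34 were lower in IRKO, and 39 of the 43 had a mean level under 2 log2 CPM. The 4 libraries of one genotype did not overlap the 4 of the other for 1762 genes (11.3%), and 967 of these were also called. Leaving out any 1 of the 8 libraries gave 931 to 1158 calls, and 576 of the 1226 genes (47.0%) were called in all 8 of these repeats.

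**Figure D1:**
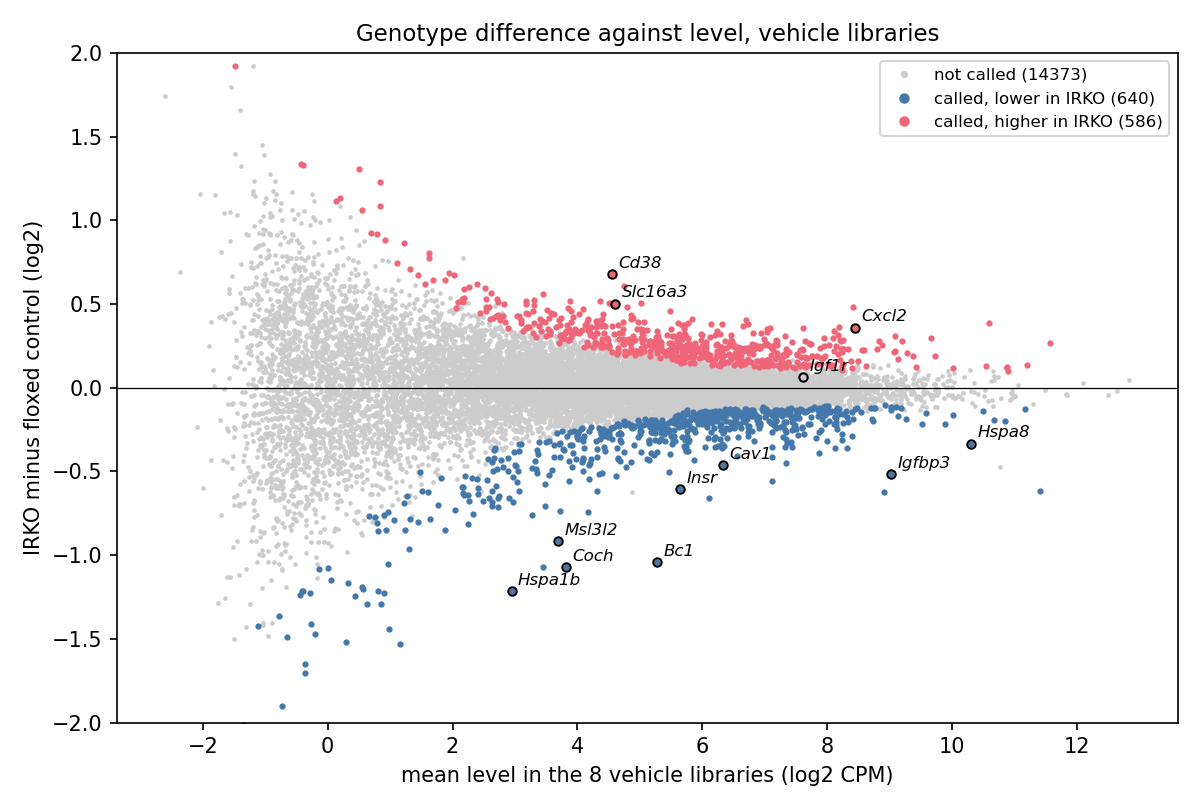
Difference between the genotypes (IRKO minus floxed control, log2, vertical axis) against mean level in the 8 vehicle libraries (log2 CPM, horizontal axis), 1 point per gene tested. The 640 genes called lower (blue) and 586 called higher (red) spread further from 0 at low levels than at high levels, and 9 genes lie outside the axis.

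The cultures held microglia transcripts alongside those of astrocytes, and the summed level of the microglia markers differed between the genotypes. The 57 microglia and macrophage markers summed to 8595 to 9160 CPM in the floxed control libraries and to 10256 to 10952 CPM in the IRKO libraries, without overlap and with a ratio of 1.18. The 38 astrocyte markers summed to 10621 to 11131 CPM in the floxed control and to 10637 to 11091 CPM in IRKO, a ratio of 1.01 with overlapping groups. In these bulk samples more microglia and more RNA per microglial cell cannot be told apart. Of the 56 microglia markers tested, 38 rose and 1 fell, beside 3.76% and 4.1% of all genes tested. Their median difference was 0.23, beside a median of −0.0008 over all genes tested. Of the 38 rises, 24 were called in every repeat without 1 library. Csf1r, the CSF-1 receptor on which microglia depend, had 273, 256, 266 and 273 CPM in the floxed control and 316, 341, 335 and 308 CPM in IRKO. Its groups did not overlap, and it rose by 0.28 (SE 0.037, adjusted p 8.91e-07). Cx3cr1, the fractalkine receptor of microglia, rose by 0.27 (SE 0.047, adjusted p 1.33e-04). Plek, the leukocyte protein pleckstrin, rose by 0.34 and Coro1a, a leukocyte actin regulator, by 0.38. Sall1, a transcription factor of microglia that is also expressed in neural progenitors, was the 1 marker that fell, by 0.23 (84.0 ± 1.74 CPM in the floxed control, 71.5 ± 5.54 CPM in IRKO, SD, n = 4; named after its value was seen).

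Other marker lists were smaller in level. Oligodendrocyte lineage markers summed to 316 to 339.5 CPM in the floxed control and to 348 to 369.6 CPM in IRKO. Neuron markers summed to 184 to 190.1 CPM and 165 to 178 CPM, and neural progenitor markers to 937 to 984 CPM and 837 to 930.3 CPM. Liver transcripts summed to 34.0 to 37.2 CPM and 43.4 to 55.4 CPM. None of these 4 sums overlapped between the genotypes. Most of the liver sum came from Trf and Hp, which brain cells also make. In floxed control library 1 they had 507 and 81 counts, with 2 of albumin. In IRKO library 1 they had 681 and 136 counts, with 0 of albumin. The sums of fibroblast and mural cell, endothelial, and ependymal and choroid plexus markers overlapped. Slc17a6, a glutamate transporter of neurons, and Cldn5, a tight junction protein of endothelium, had 0 counts in all vehicle libraries. Within the lists, the oligodendrocyte genes Cnp (0.17) and Myrf (0.92) rose, as did Rarres2 (0.23, uncertain because 33.6% of its exon length is shared) and Aqp1 (1.13), while the progenitor genes Prom1 (−0.29) and Sox1 (−0.21) fell. The calls of Cnp (IRKO library 4), Myrf (floxed 4 or IRKO 4), Aqp1 (floxed 3, floxed 4 or IRKO 1) and Sox1 (floxed 2, floxed 3 or IRKO 1) were each lost when 1 of the named libraries was left out.

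**Figure D2:**
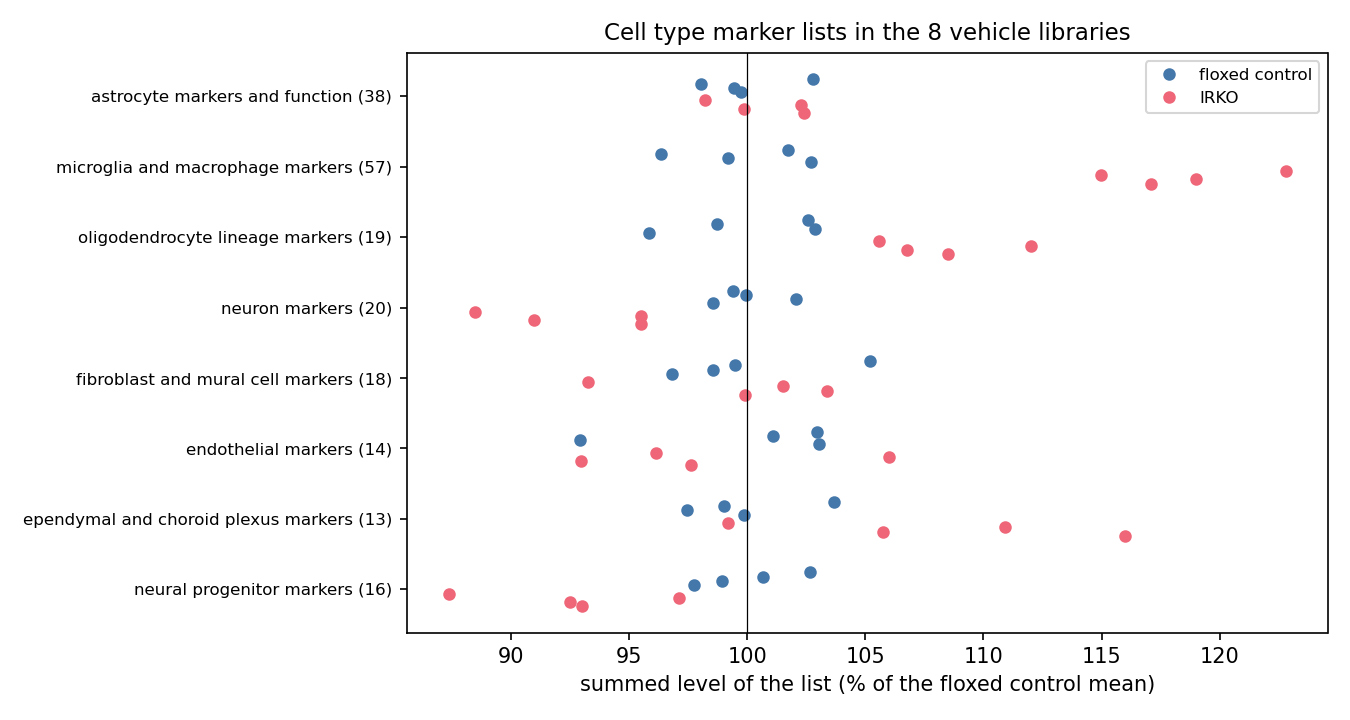
Summed level of each cell type marker list (number of genes in brackets) in each vehicle library, as a percent of the floxed control mean. The 4 IRKO points (red) for microglia lie between 115 and 123%, above the 4 floxed control points (blue), while the points for astrocyte markers overlap.

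Adding the mean log2 CPM of the microglia markers to the model as a covariate left 88 called genes, 51 higher and 37 lower, of which 65 were among the 1226 in the same direction. Of the 1226 genes, 93.3% kept their sign in that fit. A call lost there does not show that the difference was absent. That score was 5.60 to 5.66 in the floxed control and 5.78 to 5.88 in IRKO, without overlap, so under vehicle the score and the genotype cannot be told apart. The 19 named genes that stayed called with the covariate are each given as such below.

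**Figure D3:**
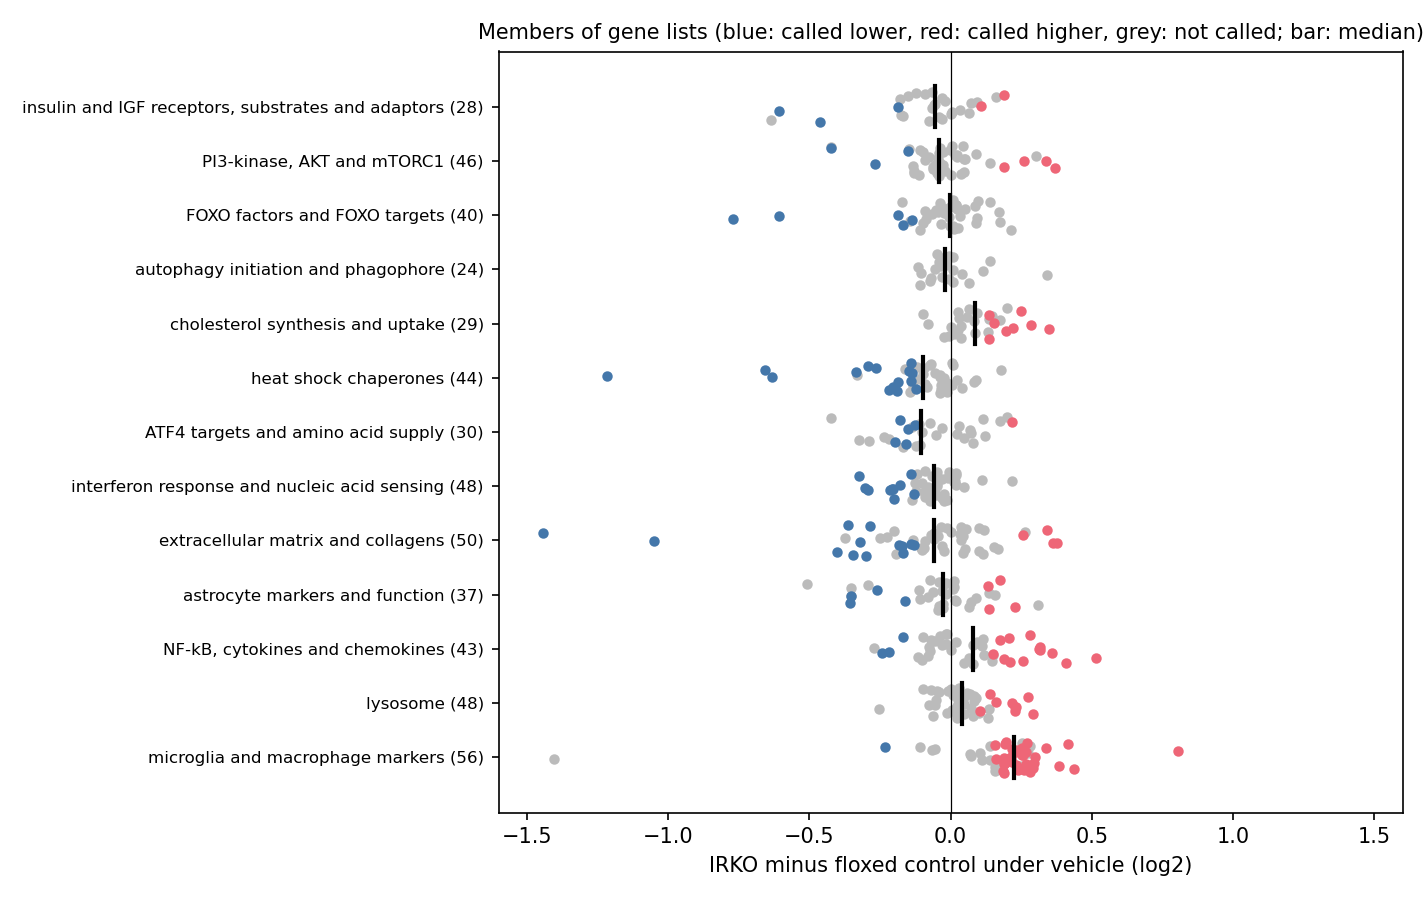
Members of 13 gene lists (number tested in brackets) by their difference under vehicle (log2, horizontal axis), with the list median as a black bar. Microglia markers, cytokines and cholesterol genes have medians above 0, and heat shock chaperones and ATF4 targets have medians near −0.1.

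Among the receptors, the targeted gene was lower in every IRKO library. Insr (chr8:3122061-3279617, minus strand, mm10) had 60.0, 66.9, 58.8 and 60.6 CPM in the floxed control and 39.7, 37.7, 40.5 and 43.7 CPM in IRKO. The groups did not overlap, and the IRKO mean was 65.6% of the floxed control mean (log2 difference −0.61, SE 0.055, adjusted p 3.00e-10). With the microglia score in the model the difference was −0.50 (adjusted p 0.034). The deposited counts are over the whole gene and not split by exon, so they do not measure the share of recombined alleles. Of the 15 genes tested within 500 kb of Insr, 1 was called: Stxbp2, which encodes a syntaxin-binding protein of secretory cells, rose by 0.26 (SE 0.046, adjusted p 1.65e-04). Igf1r, the receptor for IGF-1, had 188.5 to 193 CPM in the floxed control and 195 to 203 CPM in IRKO. Those groups did not overlap either, but the difference of 0.06 (SE 0.038) was not called (adjusted p 0.351). Per kilobase of exon the floxed control had 4.48 CPM of Insr and 11.4 CPM of Igf1r, and IRKO had 2.94 and 11.9.

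Of the 28 tested receptors, substrates and adaptors, 2 rose and 3 fell, beside 3.76% and 4.1% of all genes tested. The targeted Insr was among the 3, and the median difference was −0.06. Irs2, the insulin receptor substrate whose gene is a FOXO target, had 468, 446, 434 and 459 CPM in the floxed control and 377, 405, 417 and 389.9 CPM in IRKO. Every IRKO library was below every floxed control library, and Irs2 fell by 0.19 (SE 0.038, adjusted p 8.68e-04). Irs1, its relative, which shares 30.9% of its exon length with another measured gene, had 171 ± 1.36 and 163 ± 2.03 CPM (SD, n = 4) and was not called (−0.07, adjusted p 0.329). Cav1, the caveolin that forms caveolae and binds insulin receptors at the membrane, had 85.9, 95.9, 101 and 97.2 CPM in the floxed control and 68.4, 63.0, 70.6 and 73.9 CPM in IRKO. It fell by 0.46 without overlap (SE 0.052, adjusted p 4.65e-08), and by 0.64 with the microglia score in the model (adjusted p 0.0018). Socs3, a feedback inhibitor of cytokine and insulin signalling, rose by 0.19 (147 ± 4.45 to 168 ± 9.29 CPM, SE 0.044, adjusted p 0.0037). Ptpn1, a phosphatase that acts on the insulin receptor, rose by 0.11 (adjusted p 0.0399), a call that was lost without any 1 of 6 libraries (floxed 2, 3 and 4, IRKO 2, 3 and 4).

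**Figure D4:**
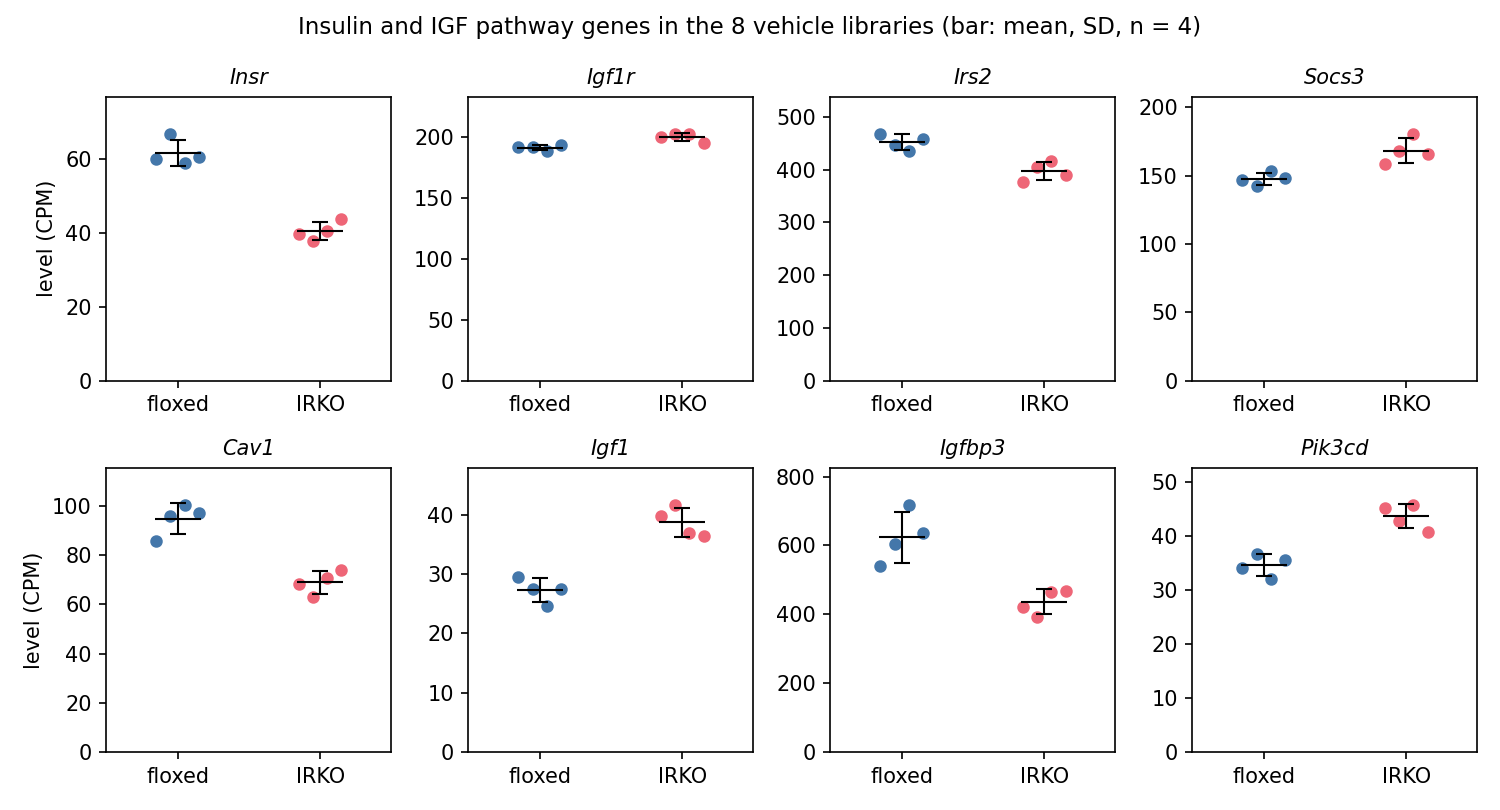
Level (CPM) of 8 insulin and IGF pathway genes in each of the 4 floxed control and 4 IRKO vehicle libraries, with the mean and SD as bars and axes that start at 0. Insr, Irs2, Cav1 and Igfbp3 lie lower in all IRKO libraries, and Socs3, Igf1 and Pik3cd lie higher.

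Among the ligands and binding proteins, 1 of 14 tested rose and 1 fell, beside 3.76% and 4.1% of all genes tested. Igf1 (chr10:87858265-87937042, plus strand), which encodes the IGF-1 ligand and in brain cultures is made largely by microglia, had 29.6, 27.5, 24.6 and 27.4 CPM in the floxed control and 39.8, 41.7, 37.0 and 36.5 CPM in IRKO. All IRKO libraries were above all floxed control libraries, and Igf1 rose by 0.51 (SE 0.070, adjusted p 2.93e-06). The microglia marker sum was also higher in IRKO, and a relation between it and Igf1 was not tested. With the microglia score in the model the Igf1 difference was 0.40 and not called (adjusted p 0.21). Igfbp3 (chr11:7206086-7213923, minus strand), a secreted protein that binds IGFs and limits their access to the receptor, had 539, 604, 718 and 636 CPM in the floxed control and 420.4, 392, 465 and 468 CPM in IRKO. It fell by 0.52 without overlap (SE 0.054, adjusted p 1.16e-08), and by 0.65 with the microglia score in the model (adjusted p 0.0029). Other binding proteins were not called: Igfbp2 had 745 ± 41.1 and 750.2 ± 56.9 CPM, and Igfbp5 358 ± 31.3 and 376 ± 30.4 CPM (SD, n = 4), with adjusted p of 0.944 and 0.483. Igf2, which shares 62.8% of its exon length with another measured gene, was near 1 CPM in both groups (0.99 ± 0.242 and 1.03 ± 0.398 CPM).

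Downstream, 4 of 46 tested genes of PI3-kinase, AKT and mTORC1 signalling rose and 3 fell, beside 3.76% and 4.1% of all genes tested. The list median was −0.04. The genes that rose were the catalytic subunits Pik3cd (0.34) and Pik3cg (0.26), which are leukocyte-enriched, and the phosphatases Inpp5d (0.19), itself a microglia marker in the list above, and Inpp4b (0.37). Pik3cd had 34.0, 36.7, 32.0 and 35.6 CPM in the floxed control and 45.1, 42.9, 45.8 and 40.9 CPM in IRKO, without overlap (SE 0.065, adjusted p 3.54e-04). Trib2, a pseudokinase that binds AKT, fell by 0.42 from 19.6 ± 1.58 to 14.6 ± 0.797 CPM (SE 0.081, adjusted p 4.21e-04). Phlpp1, a phosphatase that removes an activating phosphate from AKT, fell by 0.27 from 117 ± 8.18 to 96.8 ± 3.44 CPM (SE 0.045, adjusted p 6.81e-05). The last, the sestrin Sesn2 (−0.15, adjusted p 0.0399), lost its call without any 1 of floxed 1, 2 or 3 or IRKO 1 or 4. The calls of Inpp5d and Inpp4b were each lost without any 1 of 5 libraries (floxed 1, 2 and 3 and IRKO 2 and 3 for Inpp5d, floxed 1, 3 and 4 and IRKO 1 and 2 for Inpp4b).

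FOXO factors are held out of the nucleus by AKT and drive genes of fasting when insulin signalling is low. None of the 40 tested FOXO genes and targets rose and 5 fell, beside 3.76% and 4.1% of all genes tested. The list median was −0.003. The genes that fell were Irs2, Cited2, Foxo3, Foxo6 and Insr, which Cre targets by design. Cited2, a transcriptional coregulator, had 164 ± 7.7 CPM in the floxed control and 146 ± 5.48 CPM in IRKO (−0.17, SE 0.042, adjusted p 0.0069). Foxo3 had 192, 193, 188 and 189 CPM and 165, 183, 169 and 177 CPM, without overlap (−0.14, adjusted p 0.0175), but its call was lost without floxed 2, IRKO 1 or IRKO 3. Foxo6, near 1 to 2 CPM, lost its call without any 1 of 6 libraries (all but floxed 1 and IRKO 3). Without floxed 2 or without IRKO 1 the list had 3 genes that fell, Insr among them. Fbxo32, the ubiquitin ligase gene that FOXO factors induce in atrophy, had 44.0, 45.7, 40.2 and 45.3 CPM in the floxed control and 46.2, 51.5, 52.1 and 47.9 CPM in IRKO. The groups did not overlap, yet the difference of 0.18 (SE 0.089) was not called (adjusted p 0.254). Foxo1 had 44.0 ± 2.15 and 39.8 ± 2.82 CPM (adjusted p 0.129).

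Autophagy genes, the subject of the study's title, are counted beside the 7.86% of all genes tested that were called under vehicle. Whether these short lists differ from that share was not tested. By edgeR none of the 24 tested genes of autophagy initiation and phagophore growth was called, with 3 at an unadjusted p under 0.05, and DESeq2 called 1. Without a filter on low counts, or without IRKO 2, 1 gene rose. Ulk1, the kinase that starts autophagy, had 103, 105, 93.4 and 96.0 CPM in the floxed control and 92.2, 105, 97.0 and 98.0 CPM in IRKO, with a difference of −0.02 (SE 0.049, adjusted p 0.892). Sqstm1, the p62 cargo receptor, had 1324 ± 75.3 and 1302 ± 66.4 CPM (−0.02, adjusted p 0.814). Of 35 tested ATG8 family, conjugation and receptor genes, 1 fell: the ferritin receptor Ncoa4, by 0.14 (adjusted p 0.0283), and that call was lost without any 1 of floxed 1, 3 or 4 or IRKO 1, 2 or 3.

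Lysosomal genes rose in 9 of 48 tested and fell in none, beside 3.76% and 4.1% of all genes tested, with a median of 0.04. Among them were the cathepsins Ctsc (271, 256, 292 and 285 CPM against 333, 318, 329.6 and 314 CPM), Ctsz (0.23) and Ctss (0.23), and Gusb, the beta-glucuronidase (0.22). For Ctsc every IRKO library was above every floxed control library (0.23, SE 0.039, adjusted p 6.22e-05). Ctss and Cd68 are among those also on the microglia list, whose sum was also higher in IRKO. With the microglia score in the model none of the 9 was called. Of the 9 rises, 5 were called in every repeat without 1 library.

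SREBP2 drives genes of cholesterol synthesis and uptake when cell cholesterol is low. These genes rose in 8 of 29 tested and fell in none, beside 3.76% and 4.1% of all genes tested, with a median of 0.08. Hsd17b7, an enzyme of the late pathway, had 39.8, 40.5, 39.2 and 40.9 CPM in the floxed control and 54.2, 47.5, 51.1 and 51.7 CPM in IRKO. That was a rise of 0.35 without overlap (SE 0.059, adjusted p 7.15e-05). Stard4, a sterol carrier, rose by 0.25 (102 ± 2.99 to 122 ± 5.27 CPM, adjusted p 4.07e-05). Acat2, Idi1, Lss and Sc5d also rose, with differences of 0.13 to 0.22, each lost in some repeats without 1 library: the count fell to 5 without floxed 1 or IRKO 3 and to 4 without IRKO 4. With the 8 vehicle libraries alone in the fit it was 5, and with the microglia score in the model it was 0. Srebf1, which drives fatty acid synthesis, was not called (171 ± 11.9 and 159.6 ± 5.06 CPM, adjusted p 0.159).

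In cholesterol export and lipoprotein handling 2 of 20 tested rose: Ch25h, the cholesterol 25-hydroxylase (0.25, SE 0.047, adjusted p 3.29e-04), and the transporter Abca7 (0.23, SE 0.056, adjusted p 0.0054). Fatty acid synthesis had 2 that rose and 1 that fell of 30 tested, beside 3.76% and 4.1% of all genes tested. Gpam, which starts glycerolipid synthesis, rose by 0.25 (227 ± 25.6 to 269 ± 15.6 CPM, adjusted p 7.72e-04). The desaturase Scd1 fell by 0.12 and the acyl-CoA synthetase Acsl1 rose by 0.19. Both of these calls were lost when single libraries were left out: floxed 4, IRKO 1 or IRKO 2 for Scd1, and floxed 1, floxed 3, IRKO 1 or IRKO 3 for Acsl1.

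The 2 main lactate carriers moved in opposite directions. Slc16a1 encodes MCT1, the monocarboxylate carrier that astrocytes and endothelium use, and had 333, 310.2, 358 and 339.5 CPM in the floxed control and 273, 257, 275 and 275 CPM in IRKO. It fell by 0.31 without overlap (SE 0.039, adjusted p 5.54e-07), and by 0.43 with the microglia score in the model (adjusted p 0.0039). Slc16a3 encodes MCT4, the low-affinity carrier of glycolytic cells, and had 21.5, 19.6, 18.9 and 21.6 CPM against 30.2, 25.4, 30.0 and 29.9 CPM. It rose by 0.50 without overlap (SE 0.078, adjusted p 2.03e-05), and the value with the microglia score in the model was 0.15 (adjusted p 0.75). Of the 28 tested genes of glucose uptake and glycolysis 3 rose and 2 fell, beside 3.76% and 4.1% of all genes tested. Pfkp, the platelet-type phosphofructokinase, fell by 0.20 (adjusted p 5.26e-04), while Pfkfb4 rose by 0.32 (adjusted p 0.0137). The other rise was Pkm, pyruvate kinase, at 0.12, whose call was lost without any 1 of 6 libraries (floxed 1, 2 and 4, IRKO 2, 3 and 4). Of 28 nuclear oxidative phosphorylation genes edgeR and DESeq2 called 0, with 2 at an unadjusted p under 0.05.

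ATF4, the effector of the integrated stress response, induces genes of amino acid uptake and synthesis. Its list had a median of −0.10, with 1 of 30 tested rising and 5 falling, beside 3.76% and 4.1% of all genes tested. Slc38a2, the SNAT2 amino acid carrier, had 360.3, 362, 361 and 367 CPM in the floxed control and 332, 327, 334 and 335 CPM in IRKO. Each group was tight and they did not overlap, with a fall of 0.13 (SE 0.032, adjusted p 0.0088). The other falls were Atf4 (−0.16), Cebpb (−0.20, with 20.7% of its exon length shared with another measured gene), Slc7a5 (−0.18) and Sesn2, and all 4 calls were lost in at least 3 repeats without 1 library: floxed 3 or 4 or IRKO 1, 2 or 3 for Atf4, floxed 3 or IRKO 1 or 2 for Cebpb, and floxed 2, 3 or 4 or IRKO 1 or 2 for Slc7a5. The count of 5 became 1 without floxed 3 or without IRKO 1, 3 without floxed 4, and 8 by DESeq2. With the microglia score in the model Atf4 was the 1 gene of the list still called (−0.41, adjusted p 0.0296). Slc7a11, the cystine carrier, went the other way and rose by 0.22 (255 ± 8.8 to 297 ± 11.7 CPM, SE 0.053, adjusted p 0.0055).

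The genes that fell most were not members of the insulin pathway. The 12 largest falls among genes of at least 2 log2 CPM whose groups did not overlap ran from −1.22 to −0.71. After Hspa1b, described below, came Coch (chr12:51593341-51605771, plus strand), which encodes the secreted protein cochlin, with 21.9, 19.6, 19.7 and 20.4 CPM in the floxed control and 10.9, 8.37, 9.81 and 9.74 CPM in IRKO. The IRKO level was 47.6% of the floxed control level (−1.07, SE 0.103, adjusted p 1.22e-09). Rspo3, an R-spondin that amplifies Wnt signalling, had 12.2, 14.6, 18.2 and 18.1 CPM against 8.16, 5.51, 8.42 and 8.03 CPM. It fell by 1.07 (SE 0.128, adjusted p 1.75e-07). Bc1, a small non-coding RNA best known from neurons, fell by 1.04 from 56.7 ± 11.6 to 27.6 ± 7.2 CPM. Others were Prkg1, the cGMP-dependent protein kinase (−0.76), Diras2, a small GTPase (−0.74), Lpar4, a lysophosphatidic acid receptor (−0.74), and Serpinb1a, an elastase inhibitor (−0.71). Msl3l2, Aff2, Xkr4 and Ccdc85a completed the 12. Coch, Rspo3, Msl3l2, Prkg1, Diras2 and Hspa1b also passed the threshold with the microglia score in the model.

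The 12 largest rises chosen by the same rule were smaller, 0.52 to 0.68. Cd38 (chr5:43868553-43912375, plus strand), an enzyme that consumes NAD and is made by microglia and astrocytes, had 18.9, 17.7, 19.5 and 17.7 CPM in the floxed control and 29.3, 27.7, 30.5 and 31.0 CPM in IRKO. All IRKO libraries were higher, and Cd38 rose by 0.68 (SE 0.077, adjusted p 5.37e-08). Mylk2, a myosin light chain kinase, had 19.3, 22.6, 23.4 and 21.5 CPM against 33.0, 31.2, 33.3 and 34.9 CPM. It rose by 0.61 (SE 0.076, adjusted p 5.47e-07) and by 0.79 with the microglia score in the model (adjusted p 0.023). Csf3, the granulocyte colony-stimulating factor, rose by 0.52, and Camk2a, a kinase subunit on the neuron list, by 0.56 (8.97 ± 1.32 to 13.2 ± 2.66 CPM). Inha, an inhibin subunit, rose by 0.57, Peg3, an imprinted zinc finger gene, by 0.52, and Slc38a6, an amino acid carrier, by 0.52. With the microglia score in the model Slc38a6 was called at 0.85 (adjusted p 0.0354). Nol3 (0.59) shares 48.2% of its exon length with another measured gene, so its value is uncertain. Gm26532, Zfp707, Trim30c and Pilrb1 were at 3 to 13 CPM. The call of Zfp707 was lost without floxed 3, and that of Trim30c without any 1 of 7 libraries (all but IRKO 4).

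Chaperones of the heat shock response are induced by HSF1 through inverted GAA repeats when proteins misfold. The list of 45 was drawn up after the fall of Hspa1b had been seen. Of the 44 tested, 15 fell and none rose, beside 4.1% and 3.76% of all genes tested, with a median of −0.10. Hspa1b, the inducible HSP70, had 12.5, 9.85, 12.7 and 11.8 CPM in the floxed control and 4.16, 6.96, 4.37 and 4.65 CPM in IRKO. All IRKO libraries were below all floxed control libraries, and Hspa1b fell by 1.22 (SE 0.121, adjusted p 3.22e-09). Hspa1a, its near-identical neighbour, fell by 0.63 (6.46 ± 0.683 to 4.17 ± 0.464 CPM, adjusted p 0.0022), and the split of reads between the pair is uncertain. The constitutive HSC70 gene Hspa8 had 1393, 1304, 1549 and 1428 CPM against 1143, 1118, 1155 and 1089.8 CPM. That is a fall of 0.33 without overlap (SE 0.040, adjusted p 2.43e-07), which was 0.45 with the microglia score in the model (adjusted p 0.0039). Hsph1, the HSP110 exchange factor, had 108, 96.7, 117 and 102 CPM against 80.7, 89.1, 88.7 and 87.3 CPM (−0.29, SE 0.045, adjusted p 1.95e-05). Hspb8, a small heat shock protein that works in chaperone-assisted autophagy, fell by 0.26 (178 ± 6.35 to 148 ± 7.66 CPM, adjusted p 2.22e-05), and by 0.36 with the microglia score in the model (adjusted p 0.0343). In that fit 3 of the list fell instead of 15, and Hsph1 was not called (−0.31, adjusted p 0.10). Leaving out floxed 3 or IRKO 1 left 9 falls, and 8 of the 15 were called in every repeat without 1 library.

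The 250 bases before the transcription start of Hspa1b and Hsph1, the chaperone genes with the lowest p among those in RefSeq's promoter table, are shown (the first start listed for each) because heat shock elements are read there. They are from GRCm38.p6, on the gene's strand, with matches to GAANNTTC or TTCNNGAA in capitals. Hspa1b (chr17:34959239-34959488, minus strand) has its match starting 104 bases before the start, and Hsph1 (chr5:149636337-149636586, minus strand) 33 bases before it.
Hspa1b: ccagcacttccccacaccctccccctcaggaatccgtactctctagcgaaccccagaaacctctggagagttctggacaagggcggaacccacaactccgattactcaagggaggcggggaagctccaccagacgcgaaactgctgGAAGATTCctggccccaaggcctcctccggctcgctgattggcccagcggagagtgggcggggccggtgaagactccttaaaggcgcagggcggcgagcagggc
Hsph1: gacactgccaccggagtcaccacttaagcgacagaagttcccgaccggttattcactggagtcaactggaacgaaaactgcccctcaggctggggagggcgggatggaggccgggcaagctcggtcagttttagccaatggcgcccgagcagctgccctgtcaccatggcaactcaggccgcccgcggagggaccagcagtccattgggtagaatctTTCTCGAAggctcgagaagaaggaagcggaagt
Each motif reads the same on both strands. A match was present in 12.9% of 27025 promoters of this length and in 10.2% of those of tested genes, in 8 of the 34 chaperone promoters in the table and in 5 of the 10 belonging to genes that fell. A match describes the letters only and does not show binding.

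Interferon-stimulated genes fell in 10 of 48 tested and rose in none, beside 4.1% and 3.76% of all genes tested, with a median of −0.06. These genes restrict viruses, and both groups had been infected with an adenovirus. Iigp1, an immunity-related GTPase, had 244, 248, 271 and 248 CPM in the floxed control and 221, 196, 193 and 210.1 CPM in IRKO. It fell by 0.30 without overlap (SE 0.047, adjusted p 2.11e-05). Ifit2, which binds viral RNA, had 354, 361, 427 and 353 CPM against 326, 302, 288 and 307 CPM (−0.29, SE 0.061, adjusted p 0.0012). Igtp fell by 0.21 (328 ± 25.4 to 284 ± 5.77 CPM, adjusted p 0.0016), and the chemokine Cxcl10 by 0.20 (1987 ± 149.7 to 1729.7 ± 61.6 CPM, adjusted p 0.0019). Floxed control library 3 was the highest of its group for all 4 genes, and without it 4 of the list fell instead of 10. None was called with the microglia score in the model. Differences in that fit were −0.35 for Iigp1, −0.42 for Ifit2, −0.29 for Igtp and −0.205 for Cxcl10.

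The RefSeq promoters of Igtp and Ifit2, chosen in the same way, are shown because interferon response elements lie there, with matches to GAAA and GAAA parted by any 2 bases (GAAA, NN, GAAA), on either strand, in capitals. Igtp (chr11:58199306-58199555, plus strand) has 1 match, 34 bases before the start, and Ifit2 (chr19:34550444-34550693, plus strand) has none in this window.
Igtp: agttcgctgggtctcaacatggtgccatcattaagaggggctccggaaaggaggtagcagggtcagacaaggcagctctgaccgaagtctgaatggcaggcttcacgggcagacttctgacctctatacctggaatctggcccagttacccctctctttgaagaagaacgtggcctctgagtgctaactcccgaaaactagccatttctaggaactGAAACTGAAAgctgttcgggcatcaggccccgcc
Ifit2: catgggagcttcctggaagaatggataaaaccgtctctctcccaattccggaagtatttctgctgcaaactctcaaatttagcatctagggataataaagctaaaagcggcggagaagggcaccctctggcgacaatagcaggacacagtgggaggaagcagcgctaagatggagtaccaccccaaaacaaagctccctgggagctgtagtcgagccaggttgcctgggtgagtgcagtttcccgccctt
The motif was found in 3.04% of all promoters of this length and in 2.67% of those of tested genes. It was in 18 of the 36 promoters of the list that RefSeq's table held, and in 7 of the 9 belonging to genes that fell.

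Among cytokine and chemokine genes 13 of 43 tested rose and 3 fell, beside 3.76% and 4.1% of all genes tested, with a median of 0.08. Tnf had 281, 259, 300.3 and 272 CPM in the floxed control and 342, 336, 342 and 334 CPM in IRKO. Its groups did not overlap, and it rose by 0.28 (SE 0.042, adjusted p 8.80e-06). Cxcl2, a neutrophil chemokine, had 289, 293, 329 and 324 CPM against 419, 368, 394 and 402 CPM (0.36, SE 0.052, adjusted p 6.31e-06). Icam1, an adhesion molecule that astrocytes also express, fell by 0.22 from 791 ± 19.8 to 680.0 ± 19.9 CPM (SE 0.035, adjusted p 2.95e-05). The other 2 that fell were Cxcl5 (−0.24) and Tlr3 (−0.17), both lost without floxed 3 and without other single libraries (floxed 4 or IRKO 2 for Cxcl5, IRKO 3 for Tlr3). The microglia marker sum was also higher in IRKO, and a relation between it and the rises of this list was not tested. None of the rises was called with the microglia score in the model, which under vehicle cannot be told apart from the genotype. Without floxed 1 the list had 8 rises, and 6 of the 13 were called in every repeat without 1 library.

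A panel of reactive astrocyte genes had 5 that rose and 6 that fell of 38 tested, beside 3.76% and 4.1% of all genes tested. Cd14, a co-receptor for lipopolysaccharide that microglia also make, rose by 0.28 (416 ± 24.4 to 505 ± 22.4 CPM, adjusted p 1.08e-05), and Steap4, a metalloreductase, fell by 0.19 (1742 ± 85.4 to 1523 ± 37.0 CPM, adjusted p 4.12e-04). The number that rose was 3 with RLE size factors, 1 without floxed 2, 2 without floxed 4 or IRKO 1, and 3 without floxed 1 or IRKO 3, and the number that fell was 3 without floxed 3. Gfap, the intermediate filament gene most used as a sign of reactivity, had 700.1, 645, 679.9 and 626 CPM in the floxed control and 619.6, 729, 650.0 and 688 CPM in IRKO. The groups overlapped fully, with a difference of 0.02 (SE 0.045, adjusted p 0.863). Vim had 3738 ± 154 and 3635 ± 178 CPM (adjusted p 0.615).

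Astrocyte genes split. Of 37 tested, 4 rose and 4 fell, beside 3.76% and 4.1% of all genes tested, with a median of −0.03. Id3, an inhibitor of differentiation downstream of BMP, had 185, 188, 219 and 191 CPM in the floxed control and 153, 146, 156 and 159 CPM in IRKO. It fell by 0.35 without overlap (SE 0.044, adjusted p 3.86e-07). Fabp7, the brain fatty acid binding protein of immature astrocytes, fell by 0.36 (157 ± 13.9 to 123 ± 20.4 CPM, SE 0.065, adjusted p 2.20e-04), with 1 IRKO library within the floxed control range. Both stayed past the threshold with the microglia score in the model (−0.37 and −0.63, adjusted p 0.0471 and 0.0103). Gja1, the gap junction protein connexin 43, fell by 0.16 (adjusted p 0.0023). Aqp4, the water channel, was not called (1138 ± 25.7 and 1192 ± 29.8 CPM, adjusted p 0.271). The count of rises was 2 without floxed 2 or without IRKO 4.

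Extracellular matrix genes fell in 13 of 50 tested and rose in 4, beside 4.1% and 3.76% of all genes tested, with a median of −0.06. Vcan, the proteoglycan versican, had 60.1, 58.0, 61.9 and 59.9 CPM in the floxed control and 46.0, 44.6, 49.2 and 47.0 CPM in IRKO. It fell by 0.36 without overlap (SE 0.054, adjusted p 1.04e-05). Col8a1, a short-chain collagen, fell by 0.32 (127 ± 0.904 to 102 ± 7.63 CPM, SE 0.045, adjusted p 3.54e-06), and Adamts1, a protease that cuts proteoglycans, by 0.30 (93.7 ± 2.75 to 76.2 ± 2.21 CPM, adjusted p 4.87e-06). Lum and Dcn, small proteoglycans that are also fibroblast markers, fell by 1.44 and 1.05 at low levels (3.11 ± 0.521 to 1.14 ± 0.346 CPM for Lum). Col6a1 went the other way, from 46.6 ± 1.75 to 60.4 ± 4.33 CPM (0.38, SE 0.051, adjusted p 2.19e-06), and by 0.45 with the microglia score in the model (adjusted p 0.0354). With that score none of the 13 falls was called, and the list median was 0.03. Differences in that fit were −0.35 for Vcan, −0.33 for Adamts1, −0.23 for Col8a1, −1.68 for Lum and −1.58 for Dcn. Without both floxed 2 and IRKO 1, the libraries with the most reads outside genes, 8 genes fell. Of the 13 falls 10 were called in every repeat without 1 library, and the rises were 2 without floxed 3, floxed 4 or IRKO 3. Col1a1, the main fibroblast collagen, was not called (37.4 ± 4.23 and 34.8 ± 5.36 CPM, adjusted p 0.536).

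For the remaining lists, the share called over all genes tested was 7.86%. Of all 1226 calls, 47.0% were kept in every repeat without 1 library. The cell cycle list had 2 rises of 44 tested, Mki67 (0.25, adjusted p 0.0186) and Bub1b (0.34, adjusted p 0.0462), and 0 without any 1 of floxed 2, floxed 3, IRKO 1 or IRKO 2. In the circadian clock 3 of 20 tested rose, among them Per3 (0.29) and Per2 (0.24), and none of the 3 was called without floxed 3. With the microglia score in the model Per3 was called at 0.62 (adjusted p 0.0334). Of 40 p53 targets 1 rose (Btg2, 0.15) and 1 fell (Sesn2), and Cdkn1a, the p21 gene, was not called, at 523 ± 21.4 and 526 ± 15.6 CPM. Early response and MAPK feedback genes had 2 rises, Klf10 (0.35) and Btg2, and 2 falls, Spry4 (−0.24) and Spred2 (−0.15), of 34 tested. Of these, Klf10 alone was called in every repeat without 1 library: Btg2 was lost without any 1 of 6 (all but floxed 3 and IRKO 2), Spry4 without floxed 3 or IRKO 4, and Spred2 without any 1 of 5 (floxed 3 and 4, IRKO 1, 2 and 4). In ribosome biogenesis Nolc1 fell (−0.16), 1 of 32, which was 0 without floxed 3 or IRKO 4 and 4 without floxed 1. Of 13 neuron markers tested Map2 (−0.25) and Stmn2 (−0.16) fell and Camk2a rose, and Stmn2 lost its call without any 1 of 5 libraries (floxed 2, 3 and 4, IRKO 1 and 2). Of 5 liver transcripts tested Trf (0.30) and Hp (0.53) rose, both also made in brain cells, and Hp lost its call without any 1 of 6 libraries (floxed 1, 2 and 3, IRKO 1, 2 and 3). Of 8 endothelial markers tested edgeR and DESeq2 called 0, with 1 at an unadjusted p under 0.05.

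The genotype difference was measured again in the libraries treated with insulin and with IGF-1, which share no library with the vehicle comparison but share its fit. The labels do not say whether they came from the same cultures. Under insulin 1634 genes were called (10.5%), 771 higher (4.94%) and 863 lower (5.53%), and under IGF-1 1055 (6.76%), 564 higher (3.62%) and 491 lower (3.15%). Of the 1226 genes called under vehicle, 96.7% had the same sign under insulin, beside 68.7% of all genes tested. Under IGF-1 the shares were 95.8% and 67.5%. Under insulin 705 were called in the same direction, which is 57.5% of the vehicle calls and 43.1% of the insulin calls. Under IGF-1 it was 548, which is 44.7% of the vehicle calls and 51.9% of the IGF-1 calls. In all 3 comparisons 216 genes were higher and 243 lower.

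Differences between the genotype contrasts were tested directly. By edgeR no gene differed in its genotype effect between insulin and vehicle, with 838 genes at an unadjusted p under 0.05 and a lowest adjusted p of 0.276, and DESeq2 called 0 with 795 at that level. For IGF-1 against vehicle edgeR called 0, with 822 genes at an unadjusted p under 0.05, and DESeq2 called 2 with 780. A missed threshold does not show that the effects were equal.

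All 12 of the largest vehicle falls were also called lower in the insulin and IGF-1 libraries, with medians of −0.76 and −0.68 beside −0.79 under vehicle, where they were chosen. Hspa1b fell by 1.33 and 1.38, Rspo3 by 0.92 and 0.97, Diras2 by 0.92 and 0.75, and Coch by 0.77 and 0.50. Of the 12 largest rises, 6 were called higher under insulin and 4 under IGF-1, and the medians were 0.32 and 0.20 beside 0.56 under vehicle. All 12 of these rises kept their sign under insulin, and 10 did under IGF-1. Cd38 rose by 0.35 and 0.29, and Mylk2 by 0.27 and 0.44. Zfp707, Nol3 and Trim30c were called in neither.

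**Figure D5:**
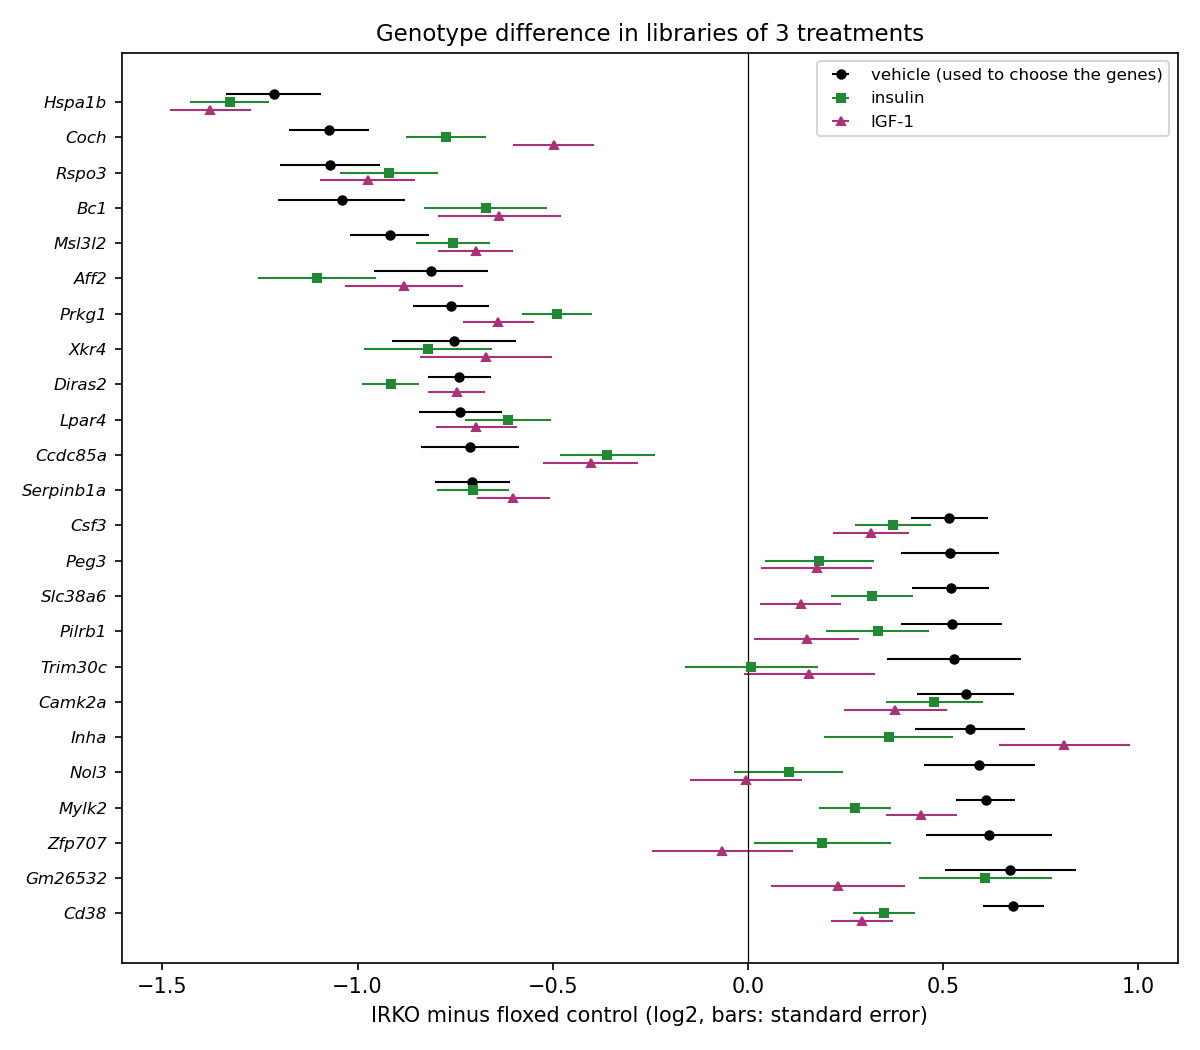
Genotype difference (IRKO minus floxed control, log2, with SE) in the vehicle, insulin and IGF-1 libraries for the 24 genes chosen by their vehicle values. All 12 genes that fell lie left of 0 in the 3 treatments. The genes that rose have medians nearer 0 in the treated libraries, and 10 of these 12 lie right of 0 under IGF-1.

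The pathway genes moved in the treated libraries as follows. Insr fell by 0.61 with vehicle, 0.78 with insulin and 0.68 with IGF-1, and Cav1 by 0.46, 0.53 and 0.49. Igfbp3 fell by 0.52, 0.45 and 0.44. Igf1 rose by 0.51 under vehicle and by 0.27 under insulin, and its value under IGF-1 was 0.21 (adjusted p 0.088). Irs2 fell under vehicle and insulin (0.19 and 0.16), and under IGF-1 its value was −0.10 (adjusted p 0.098). Of 44 heat shock chaperones tested, 18 fell under insulin and 15 under IGF-1, with none rising. Over all genes tested 5.53% and 3.15% were lower. Of 56 microglia markers tested, 27 and 19 rose and 1 fell in each, beside 4.94% and 3.62% of all genes higher. Of 48 interferon genes tested, 10 fell under vehicle, 13 fell and 1 rose under insulin, and 1 fell and 4 rose under IGF-1. Hsd17b7 rose in all 3 (0.35, 0.26 and 0.25).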

How the data were processed

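RNA was sequenced as 150 bp pairs from poly-A libraries without strand information, per the labels' protocols. The authors deposited raw read counts per gene, 1 file per library. Per the submitters' processing notes, mm10, STAR 2.7.7a, R 4.0.4, DESeq2 and edgeR were used, with no role given. Which program counted the reads, and with which annotation, is not given in the sources used here. Lines that name no gene were left out. Without strand information, reads of overlapping genes cannot be told apart, and genes sharing over 20% of their exon length are given as uncertain. In the vehicle libraries the summed gene counts exceeded the reads with a unique overlap by 4.73 to 4.93%, so counts and reads are not 1 to 1. Coordinates are from GENCODE M21 (mm10).

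Counts of all 24 libraries were fitted with edgeR 4.0.16 in R 4.3.3: edgeR's expression filter (minimum count 10, minimum total 15), TMM scaling (factors 0.982 to 1.018), 1 mean per group and quasi-likelihood tests, with Benjamini-Hochberg adjustment. The biological coefficient of variation was 4.92%. The script was tested on simulated data. Named genes were the 12 largest rises and falls (called, mean of at least 2 log2 CPM, groups not overlapping), the lowest p-values of each list (up to 4 genes), and a set of pathway and marker genes; Ptpn1, Inpp5d, Inpp4b, Foxo6, Acat2, Idi1, Lss, Sc5d, Pkm, Slc7a5, Cxcl5, Tlr3, Cd68, Sall1 and Hspa1a were added after their values were seen. The members and lists were chosen with earlier results of these data known, and the heat shock list after its leading gene had been seen. Some genes of the lists are counted but not reported here by name. Same-numbered vehicle libraries did not deviate together (correlations −0.06 to 0.05), so the replicate numbers were not used as pairs. Replicates differed by more than sampling noise (chi-square per gene 2.63 to 6.71 among vehicle pairs).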

Additional observations from a re-analysis of the deposited data

Results flagged for a closer look

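In groups of 4, a library was singled out where its distance to the nearest other library was most of the group's range (Dixon's test at the 95% level). Of 274 sets of 4 vehicle values, 18 had such a library, and chance gives about 1 in 20. No cause was tested.

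Floxed control library 3 stood apart in 6 of them. It was highest for Id3 (219 CPM, next 191), Iigp1 (271 CPM, next 248) and Ifit2 (427 CPM, next 361). It was lowest for Map2 (57.3 CPM, next 63.8), for albumin (Alb, 0 CPM, next 0.114) and in the number of genes with a count (19287, next 19392). Without this library Id3, Iigp1, Ifit2 and Map2 were still called, and 4 interferon genes fell instead of 10.

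IRKO library 2 stood apart in 6 values. It was lowest for Rspo3 (5.51 CPM, next 8.03), Slc16a1 (257 CPM, next 273) and Slc16a3 (25.4 CPM, next 29.9). It was highest for Igfbp5 (421 CPM, next 363), Peg3 (12.9 CPM, next 9.97) and Camk2a (17.1 CPM, next 12.4). The genes among these that were called in the vehicle comparison were also called without it.

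In IRKO library 4, Alb was at 6.20 CPM with the other 3 at 0, Rarres2 was high (56.0 CPM, next 48.9) and Spry4 low (19.7 CPM, next 21.7). Alb was not called with all libraries, and its difference ran from −3.70 to 4.45 when single libraries were left out. The adjusted p of Alb in those repeats ran from 0.0331 to 0.614, so it was called in at least 1 of them. Spry4 lost its call without this library. IRKO library 1 was lowest for Sox1 (39.2 CPM, next 44.5), which lost its call without it, and for Inha (5.92 CPM, next 7.86). Its 20 most abundant genes held 6.68% of counts, with the next library at 6.33%.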

How the results depend on the processing

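The count of 1226 was within 1.5 times of itself by DESeq2 (1325), with RLE size factors (1240), library size alone (1199), no filter on low counts (1249), genes of at least 1 mean CPM (1277), the 8 vehicle libraries alone (925) and a replicate block, which pairs libraries by their replicate number (1216, Insr −0.61). Without each library in turn it was 931 to 1158, with 447 to 590 higher and 471 to 614 lower, and Insr ran from −0.64 to −0.56. More genes were higher than lower with library size alone (665 and 534), with no filter (652 and 597) and with the vehicle libraries alone (468 and 457), while lower genes led by DESeq2, with RLE size factors, with genes of at least 1 mean CPM and with the replicate block. The replicate block ended the call of Bub1b (adjusted p 0.0540) and no other named call; numbers did not pair the libraries. With the microglia score in the model the count was 88 (51 higher, 37 lower), and 19 of 108 named calls held. Without floxed 2 and IRKO 1, the vehicle libraries with over 20% of reads outside genes (chosen after seeing the data), it was 790 (388 higher, 402 lower) with Insr at −0.56.

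Of the named genes, these turned direction with the microglia score in the model: Map2 (0.014), Sox1 (0.084), Sesn2 (0.019), Foxo1 (0.0096), Col1a1 (0.047), Srebf1 (0.025), Ulk1 (0.086), Cdkn1a (−0.10), Igfbp2 (−0.015), Igf2 (−0.30), Acsl1 (−0.11), Ctss (−0.034) and Csf3 (−0.058). Ulk1 was 0.041 without both libraries above, and Cdkn1a −0.000616 with genes of at least 1 mean CPM. Without single libraries, genes not called with all libraries turned direction: Alb (−3.70 to 4.45), Cdkn1a (−0.017 to 0.034), Gfap (−0.022 to 0.057), Igf2 (−0.25 to 0.21), Igfbp2 (−0.021 to 0.047), Sqstm1 (−0.058 to 0.012) and Ulk1 (−0.054 to 0.013). Genes whose genotype effect differed between insulin and vehicle numbered 0, 0 to 4 without single libraries (4 without IRKO vehicle 1), 19 with no filter and 2 without both libraries; for IGF-1 they numbered 0, 0 without single libraries, 2 by DESeq2 and 19 with no filter. The cause of these shifts was not tested.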
